A study of Rattus norvegicus with 172 samples.

Results

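The genes for the vesicular glutamate transporter VGLUT2 (Slc17a6) and for 8 glutamate receptor subunits (Gria1, Gria2, Gria3, Gria4, Grin1, Grin2a, Grm5 and Grik1) were followed in rat spinal cord after complete transection. These 9 genes, of 14218 that the array could name, were picked by symbol, with earlier results of these data known. They were represented by 17 probe sets, and where a gene had several probe sets, the brightest of them, averaged across cord arrays, gave its value. Slc17a6, Gria1 and Grik1 each had 1 probe set and the other 6 genes had several.

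RNA was measured on Affymetrix Rat Genome 230 2.0 arrays in female Wistar rats aged 2 months, after removal of 5 mm of cord at T7-8. NT-3 tube rats received a chitosan tube filled with chitosan carriers loaded with neurotrophin-3 (NT-3), tube alone rats received the empty tube, and lesion control rats received no implant. The stump rostral to the lesion, the gap itself and the caudal stump were collected on days 1, 3, 10, 20, 30, 60 and 90, except that the gap was not sampled on day 1 and the tube alone gap was sampled on day 3 only. Uninjured rats gave the matching T7-8 segments, called normal cord. Of the 172 arrays, 164 came from 55 injured groups, 3 from normal cord and 5 from a commercial reference RNA. Every injured group had 3 arrays except tube alone rostral on day 10, which had 2. Per the labels each array of injured cord held tissue pooled from 4 animals, so a p-value here reflects how pools varied, with a precision limited by having 3 arrays in most groups. A difference in bulk tissue cannot tell fewer cells apart from less RNA per cell. The gap was the site from which the cord had been removed, and how much cord its arrays held was not measured. The tissue included dura and meninges, per the labels, and all comparisons with normal cord share its 3 arrays.

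Glutamate is the main excitatory transmitter of the spinal cord. VGLUT2 loads it into the synaptic vesicles of most spinal excitatory interneurons. It acts on AMPA receptors, which carry the fast synaptic current and are built from the products of Gria1 to Gria4, and on NMDA receptors, which need the Grin1 subunit and add regulatory subunits such as that of Grin2a. Grm5 encodes mGluR5, a receptor that signals through G proteins and is found on neurons and astrocytes. Grik1 encodes the kainate receptor subunit GluK1, which is abundant in small sensory neurons of the dorsal root ganglia.

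The deposited values were log2 intensities after RMA, with array medians between 7.10 and 7.25. Within groups, the lowest correlation between any pair of arrays was 0.972. Normal cord carried the neuron markers Nefm at 14.04 and Snap25 at 13.83. Groups of arrays stood apart in one gene. RT1-CE10, a histocompatibility gene, was at 6.55 in normal cord and between 6.71 and 12.12 in the injured groups, with values above 10 in all arms on day 30, in NT-3 tube rats on days 1 and 90, and in tube alone rats on days 1 and 60. Comparisons between arms were therefore also made on matched days, on which RT1-CE10 differed between the arms by less than 1 log2 unit. Comparisons with normal cord, and between days within an arm, were not matched for it.

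For 3 of these genes the RefSeq promoter is shown, because Slc17a6 and Grin1 fell in every segment of lesion control rats while group means of Grik1 reached the normal range in the late gap. RefSeq sequence (GRCr8) matched 5 of the 9 genes, and each stretch below runs from 250 bases before to 50 bases after the annotated start, read 5′ to 3′ on the gene's strand, with GGGCGG in capitals.
Slc17a6, chr1:110348197-110348496 (+): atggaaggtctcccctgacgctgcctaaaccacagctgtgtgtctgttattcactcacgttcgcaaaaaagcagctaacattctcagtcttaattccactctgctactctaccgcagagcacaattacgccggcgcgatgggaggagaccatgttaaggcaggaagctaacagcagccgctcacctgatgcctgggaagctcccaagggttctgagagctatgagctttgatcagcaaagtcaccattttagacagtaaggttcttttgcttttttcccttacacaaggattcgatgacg
Grin1, chr3:28528705-28529004 (-): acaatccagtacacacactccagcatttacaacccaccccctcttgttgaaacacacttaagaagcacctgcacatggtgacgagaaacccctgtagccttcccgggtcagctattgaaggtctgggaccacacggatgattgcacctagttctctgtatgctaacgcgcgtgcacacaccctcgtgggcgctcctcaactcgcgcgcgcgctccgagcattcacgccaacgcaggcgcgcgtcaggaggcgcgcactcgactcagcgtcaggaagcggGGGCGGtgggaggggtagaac
Grik1, chr11:41056454-41056753 (-): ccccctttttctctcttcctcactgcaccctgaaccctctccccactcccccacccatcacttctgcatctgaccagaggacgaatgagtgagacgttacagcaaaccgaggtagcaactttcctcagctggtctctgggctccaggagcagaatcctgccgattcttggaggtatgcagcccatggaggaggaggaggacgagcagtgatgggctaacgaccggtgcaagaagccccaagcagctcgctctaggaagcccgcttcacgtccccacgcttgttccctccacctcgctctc
The letters GGGCGG, searched on both strands (CCGCCC on the other), occurred in 1 of the 5 matched promoters, that of Grin1, and in 33.1% of 33469 promoters of the same length. The Grin1 stretch held 25 CG dinucleotides and the Slc17a6 stretch 11, against a median of 7 over all promoters.

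In lesion control rats Slc17a6, the AMPA subunits and Grin1 were below normal cord in all segments, with differences between -1.50 and -0.29 log2 units in the stumps and between -4.04 and -1.79 in the gap. All of these passed the test except that of Gria2 in the late caudal stump, with Gria1 in the gap given as a description only. Marker lists of several cell types also differed from normal cord, some down and some up. Over the lesion control arrays the median of the neuron markers was -2.30 relative to normal cord in the gap, -0.70 in the rostral stump and -0.52 in the caudal stump. That of the oligodendrocyte markers was -2.28, -0.47 and -0.45 in the same segments. Fibroblast markers stood at 4.35, 2.52 and 1.78, and the microglia and macrophage markers at 2.21, 2.58 and 2.57. Astrocyte markers stood at -1.39, -0.19 and -0.14, sensory ganglion markers at 0.91, 0.35 and 0.17, and skeletal muscle markers at 3.39, -0.16 and -0.25. The part of these markers in the differences from normal cord was not tested. The whole array moved widely as well: of 11922 genes tested in the gap, 34.8% fell on day 3, 36.2% on days 10 to 30 and 36.6% on days 60 to 90, and the counts for these genes are read against those shares. The median difference of all genes tested lay between -0.06 and 0.11. By group mean, the 13 gap groups were the 13 lowest of 56 for Slc17a6, Gria1, Gria2, Gria3, Gria4 and Grin1, and normal cord was the highest for each. The share of all genes with that order is not given here, so the order is a description.

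**Figure D1:**
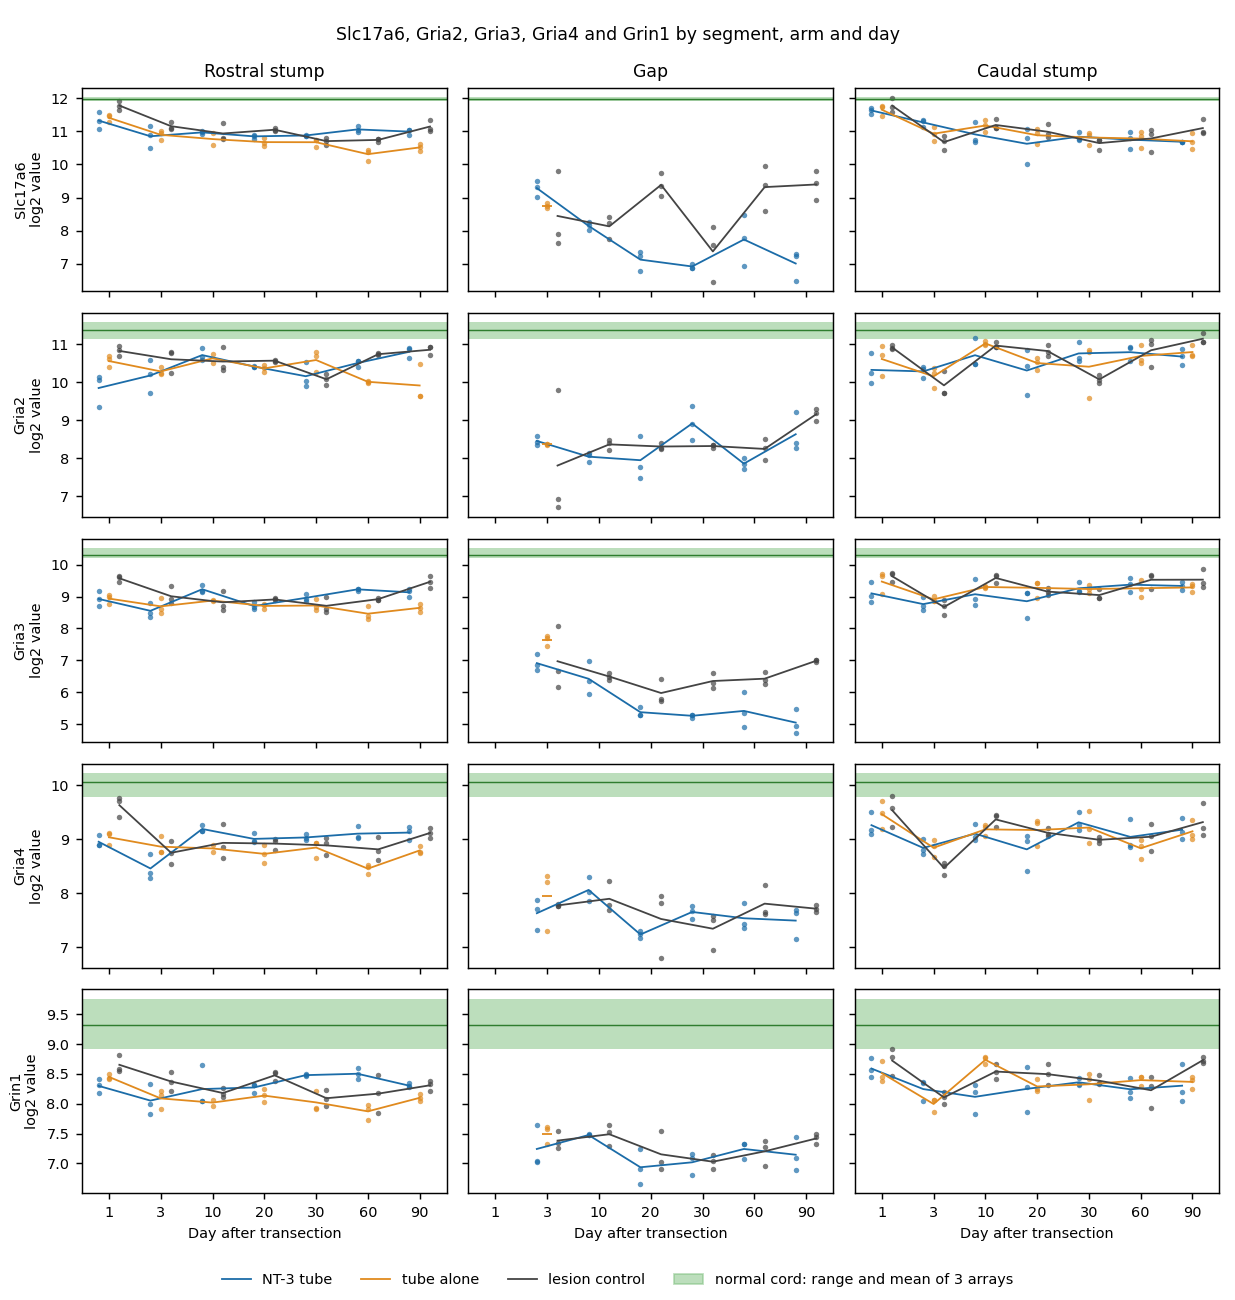
Log2 values of Slc17a6, Gria2, Gria3, Gria4 and Grin1 (rows) by day after transection in the rostral stump, gap and caudal stump (columns); dots are arrays, lines join group means of the NT-3 tube, tube alone and lesion control arms, and the green line and band are the mean and range of the 3 normal cord arrays. Every gap array lay below the normal cord range for each of the 5 genes, and the lesion control gap lay above the NT-3 gap for Slc17a6 on days 20, 60 and 90.

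Slc17a6, the transporter, had 11.92, 11.77 and 11.64 in the rostral stump of lesion control rats on day 1, against 12.04, 11.92 and 11.97 in normal cord. The groups touched at 11.92, and the difference of -0.20 did not pass (limma, Benjamini-Hochberg adjusted p = 0.185). The caudal stump on day 1 differed from normal cord by -0.20 as well (adjusted p = 0.38). On each of the other 6 days Slc17a6 fell in both stumps. Rostral lesion control values were 11.07, 11.11 and 11.28 on day 3, 10.70, 10.60 and 10.81 on day 30, and 11.34, 11.01 and 11.08 on day 90. All 9 were below every normal array. Averaged over days, the rostral differences from normal cord were -0.51 on days 1 to 3 (SE 0.11, adjusted p = 6.74e-05), -1.08 on days 10 to 30 (SE 0.10, adjusted p = 5.87e-13) and -1.04 on days 60 to 90 (SE 0.11, adjusted p = 2.25e-11). The caudal stump gave -0.75, -1.04 and -1.04 over the same spans.

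In the gap of lesion control rats Slc17a6 had 9.80, 7.90 and 7.64 on day 3. The first of these arrays stood more than 1 log2 unit above the others. Slc17a6 had 8.11, 6.46 and 7.56 on day 30, 9.39, 9.96 and 8.60 on day 60, and 9.80, 8.94 and 9.45 on day 90. The differences from normal cord were -3.53 on day 3 (SE 0.41, 11.5-fold, adjusted p = 3.27e-09), -3.68 on days 10 to 30 (SE 0.34, 12.8-fold, adjusted p = 1.39e-11) and -2.62 on days 60 to 90 (SE 0.36, adjusted p = 9.36e-08). Without the first day 3 array the day 3 difference was -4.21. Over those 3 arrays the neuron markers averaged between -4.22 and -2.15 relative to normal cord and the skeletal muscle markers between 0.77 and 5.68, and their part was not tested. All 13 gap groups lay wholly below normal cord, as did 20 of 21 rostral and 20 of 21 caudal groups. Over all genes, 28.1% of rostral, 31.8% of gap and 26.3% of caudal gene and group pairs lay wholly below normal cord.

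Gria3, an AMPA receptor subunit, fell in every segment. Its gap values in lesion control rats were 8.08, 6.67 and 6.17 on day 3, 6.41, 5.73 and 5.79 on day 20, and 7.02, 6.94 and 7.01 on day 90, against 10.53, 10.21 and 10.20 in normal cord. No gap array reached the normal range. The differences from normal cord were -3.34 on day 3 (SE 0.30, 10.1-fold, adjusted p = 1.23e-11), -4.04 on days 10 to 30 (SE 0.25, 16.4-fold, adjusted p = 7.25e-16) and -3.61 on days 60 to 90 (SE 0.26, adjusted p = 9.08e-14). Rostrally they were -1.02, -1.50 and -1.12, and in the caudal stump -1.16, -1.05 and -0.79, all called. The second Gria3 probe set gave a smaller fall in the gap, -2.24 against -3.78 over all days, so the size depended on which probe set was read.

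Gria2, the subunit that limits calcium entry through AMPA receptors, had 9.80, 6.92 and 6.71 in the day 3 gap of lesion control rats, against 11.58, 11.14 and 11.43 in normal cord. From day 10 to day 60 the gap arrays lay between 7.96 and 8.50, and on day 90 they were 8.99, 9.30 and 9.20. The gap differences were -3.57 on day 3 (SE 0.41, adjusted p = 2.76e-09; -4.57 without the first array), -3.05 on days 10 to 30 and -2.68 on days 60 to 90. Caudal lesion control values on day 90 were 11.06, 11.31 and 11.07, with 1 of them inside the normal range and the others just below it. The caudal difference on days 60 to 90 was -0.39, with a 95% interval of -0.81 to 0.03 (adjusted p = 0.115), and with array weights it was called (-0.38, adjusted p = 0.00974), while the rostral one was -0.59 (adjusted p = 0.00212).

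The remaining AMPA subunits, Gria4 and Gria1, fell in all segments. Gria4 had 7.81, 7.76 and 7.76 in the day 3 gap of lesion control rats, against 10.19, 9.79 and 10.22 in normal cord. Its gap differences were -2.29, -2.48 and -2.30 over the successive spans (adjusted p = 4.5e-10, 6.42e-13 and 2.22e-11), and the stump differences ran from -0.88 to -1.15. The other Gria4 probe sets differed by -3.98 and -1.45 in the gap over all days, against -2.39 for the set used, so the size depended on which was read; the last of them had a normal mean of only 5.43. Gria1 was a dim gene: its gap values on day 90 were 5.80, 5.17 and 5.17, against 7.10, 6.75 and 6.82 in normal cord. It passed the filter on dim genes in the gap only through normal cord, so its gap differences of -1.90, -1.96 and -1.79 are given as a description. Gria1 in the rostral stump had 6.82, 6.76 and 6.66 on day 60, which overlapped normal cord, and the difference on days 60 to 90 was -0.29 (SE 0.12, adjusted p = 0.0379). That call was lost without normal cord replicate 1 (-0.18, adjusted p = 0.258) and without lesion control replicate 2 or 3, and the caudal one (-0.36, adjusted p = 0.0209) without normal cord replicate 1 or lesion control replicate 1.

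Set against normal cord, Gria2 minus Gria3 averaged 0.76 ± 0.60 over the 18 lesion control gap arrays (SD) but -0.24 when all probe sets of each gene were averaged, so no direction holds for that pair. Gria1 had lesion control gap means between 4.81 and 5.38, near its range of 4.48 to 5.06 in the reference RNA, where a change is understated.

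Grin1, the obligatory NMDA receptor subunit, had 7.54, 7.26 and 7.35 in the day 3 gap of lesion control rats and 7.32, 7.50 and 7.44 on day 90, against 8.91, 9.76 and 9.28 in normal cord. The gap differences were -1.93 (SE 0.19, adjusted p = 6.25e-11), -2.09 and -2.01. In the stumps they lay between -0.80 and -1.08. Grin2a, a regulatory NMDA receptor subunit, was read with little signal: its brightest probe set had group means between 5.59 and 6.26, under the filter value of 6.55 in every group, and was not tested. A second probe set was at 6.16, 6.89 and 7.38 in normal cord, and differed by -1.36 in the day 3 gap and by -1.18 in the rostral stump on days 1 to 3. It would pass the filter only through normal cord, so these values are a description. The remaining probe set had a normal mean of 4.86 and differed by 0.03 rostrally, -0.26 in the gap and -0.03 caudally over all days. Across 56 group means the brightest set had r = 0.0003 with the second and r = -0.09 with the remaining one, and no direction is given for Grin2a.

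Grm5 was dim. Normal cord was at 6.68, 5.94 and 6.66, below the filter value on average, and the gene passed in the stumps only through late lesion control groups. Its rostral values in lesion control rats were 5.72, 5.77 and 5.96 on day 1, 5.76, 5.78 and 6.05 on day 30, and 6.65, 6.71 and 6.89 on day 60. On day 60 they overlapped normal cord. The differences from normal cord were -0.45 on days 1 to 3 (adjusted p = 0.00928), -0.48 on days 10 to 30 (adjusted p = 0.00351) and 0.13 on days 60 to 90 (95% interval -0.18 to 0.44, adjusted p = 0.478). The caudal ones were -0.64, -0.55 and 0.09. The called stump differences were lost without normal cord replicate 1 or replicate 3, and the rostral one on days 1 to 3 also without lesion control replicate 2. Without normal cord replicate 2, the array at 5.94, the rostral ones were -0.70 and -0.72. Every gap array of Grm5 was below normal cord, the highest at 5.72, but the gene was not tested there. With no filter its gap differences were -1.16, -1.42 and -1.04 (limma, adjusted p = 1.06e-06, 3.39e-10 and 8.36e-07). The second Grm5 probe set, with a normal mean of 5.77, differed by only -0.34 in the gap over all days, against -1.25 for the set used. Rostrally the differences were -0.16 against -0.30, and caudally -0.22 against -0.39. Over 56 group means the sets had r = 0.45, so the size depended on which was read.

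Grik1, the kainate receptor subunit, varied in the lesion control gap with the day and, on late days, between arrays. It had 5.70, 5.64 and 5.17 in the gap of lesion control rats on day 3, 6.19, 5.47 and 5.82 on day 10, 6.42, 7.23 and 6.92 on day 20, 5.76, 5.54 and 5.47 on day 30, 7.02, 7.52 and 5.72 on day 60, and 7.36, 6.22 and 6.99 on day 90, against 6.74, 6.89 and 6.52 in normal cord. The arrays of days 3, 10 and 30 were all below normal cord, while those of days 20, 60 and 90 lay on both sides of its range, with group means of 6.86, 6.75 and 6.86. The gap differences were -1.21 on day 3 (SE 0.32, adjusted p = 0.00105), -0.63 on days 10 to 30 (SE 0.26, adjusted p = 0.0306) and 0.09 on days 60 to 90 (95% interval -0.48 to 0.65, adjusted p = 0.786). The call on days 10 to 30 was lost without normal cord replicate 1 (adjusted p = 0.0755) or replicate 2 (adjusted p = 0.118). Grik1 in the rostral stump differed by -0.56 on days 1 to 3 and by -0.62 on days 10 to 30, both called, and by -0.03 on days 60 to 90 (95% interval -0.31 to 0.26).

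**Figure D2:**
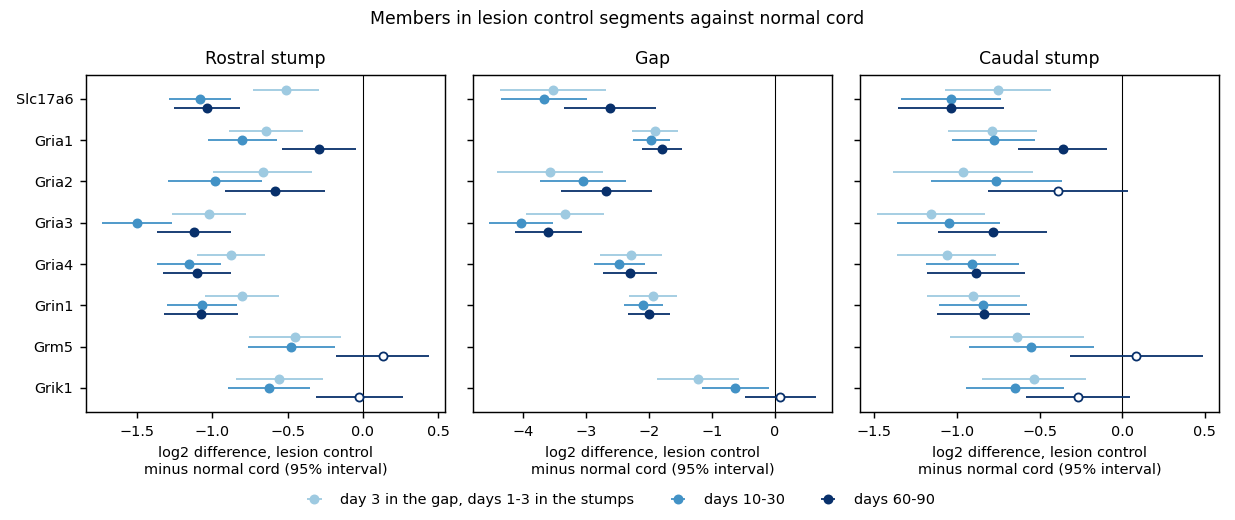
Log2 difference, lesion control minus normal cord, with its 95% interval, for each gene tested in the rostral stump, gap and caudal stump; filled points passed an adjusted p of 0.05, open points did not, and shades mark the span of days. Gria3 reached -4.04 in the gap. The intervals reached across 0 on days 60 to 90 for Grm5 in the stumps, Grik1 in all segments and Gria2 in the caudal stump.

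Counted over the genes tested, 8 of 8 fell in the rostral stump on days 1 to 3, where 30.1% of all genes fell, 8 of 8 on days 10 to 30 (32.4% of all genes) and 6 of 8 on days 60 to 90 (32.5%). In the gap 7 of 7 fell on day 3, 7 of 7 on days 10 to 30 and 6 of 7 on days 60 to 90. In the caudal stump the counts were 8 of 8 (30.4% of all genes), 8 of 8 (29.3%) and 5 of 8 (28.8%). None rose. Gria1 in the gap and Grm5 in the stumps had passed the filter through 1 side of these comparisons. The genes were also chosen with earlier results of these data known. All counts in this paragraph are therefore a description. Taken group by group against normal cord, 388 of 427 pairs of gene and group fell and none rose, where 30.5% of such pairs over all genes fell. The count was 358 to 398 when 1 normal array was left out.

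**Figure D3:**
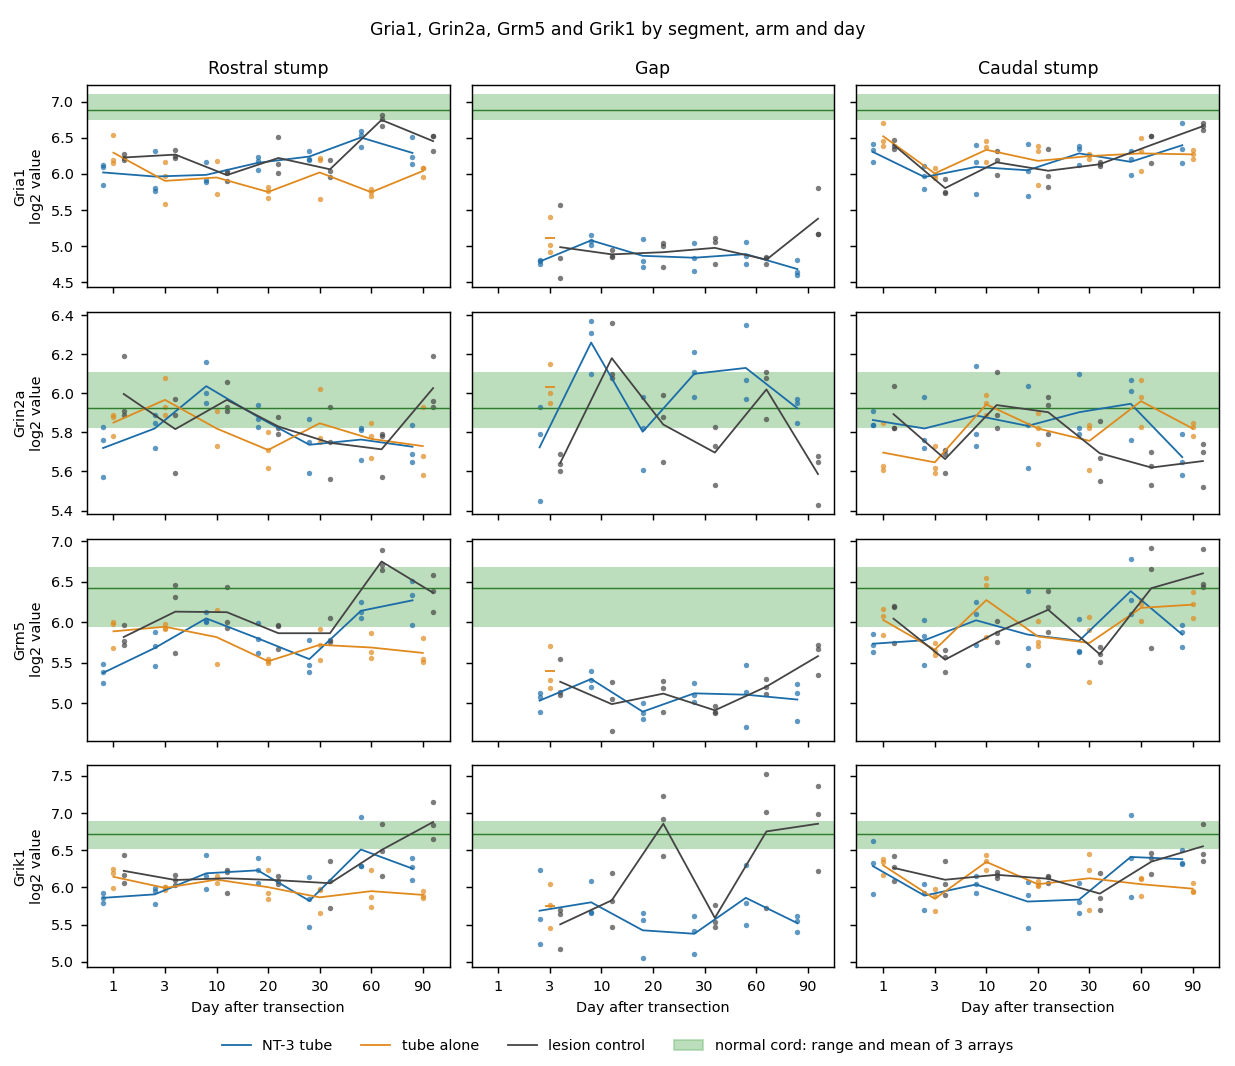
Log2 values of Gria1, Grin2a, Grm5 and Grik1 (rows) by day after transection in the rostral stump, gap and caudal stump (columns), drawn as for the brighter genes; each row has its own scale. Grik1 in the lesion control gap was within the normal cord band by group mean on days 20, 60 and 90, with arrays on both sides of it, and below it on days 3, 10 and 30, and Grin2a overlapped the band in most groups.

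The gap was compared directly with the rostral stump of lesion control rats on days 3 to 90, with arrays of both segments taken as independent. Of 8 genes tested 7 were lower in the gap, where 36.7% of all genes were lower. Slc17a6 averaged 8.68 in the gap and 10.95 in the rostral stump (difference -2.28, SE 0.12, adjusted p = 2.44e-29). Gria3 averaged 6.54 in the gap and 8.97 in the rostral stump (difference -2.44, SE 0.09, adjusted p = 5.5e-37). Grm5, which passed the filter here through the rostral stump, differed by -1.01. Grik1 differed by -0.06, with a 95% interval of -0.26 to 0.14 (adjusted p = 0.569). That average joined days of both directions. By group mean Grik1 was lower in the gap on days 3, 10, 30 and 90 and higher on days 20 and 60. It was 5.50 in the gap and 6.10 rostrally on day 3, and 6.86 in the gap and 6.10 rostrally on day 20. Between the rostral and caudal stumps of lesion control rats 1 of 8 genes was called, where 4.32% of all genes were lower rostrally: Gria3 averaged 9.06 rostrally and 9.31 caudally (difference -0.25, adjusted p = 0.0059). That call was lost without lesion control replicate 2 (-0.17, adjusted p = 0.312) and on the mean of all probe sets (-0.09).

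Late and early spans of lesion control rats were compared within each segment. In the rostral stump 3 of 8 genes were lower on days 60 to 90 than on days 1 to 3, where 29.8% of all genes were lower, and 3 were higher, where 19.6% of all genes were higher. Slc17a6 was lower (-0.52, SE 0.09, adjusted p = 3.08e-06), with less firm falls of Gria4 (-0.23, adjusted p = 0.037) and Grin1 (-0.27, adjusted p = 0.0209). Grik1 rose by 0.53 (SE 0.12, adjusted p = 0.000223) and Gria1 by 0.35 (adjusted p = 0.0029). The other gene higher late was Grm5, by 0.58. Grm5 entered the stump fits only through the late lesion control groups, which are the high side here and in the comparisons of the other arms with lesion control, so its differences there are given as a description, and no count that includes it is support. The Gria4 call was lost without lesion control replicate 1 or 3, and the Grin1 call whichever lesion control replicate was left out, and both were lost after a second quantile normalization (-0.16 for Gria4 and -0.21 for Grin1). In the caudal stump 4 of 8 rose late, where 21.3% of all genes rose: Grm5 by 0.72, again a description, Gria2 by 0.58 (adjusted p = 0.00464), Gria1 by 0.43 (adjusted p = 0.00108) and Gria3 by 0.37 (adjusted p = 0.0178). The Gria2 call was lost without lesion control replicate 3 and the Gria3 call without replicate 1 or 3.

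In the gap 3 of 7 genes rose late relative to day 3, where 29.3% of all genes rose. Grik1 rose by 1.30 (SE 0.28, adjusted p = 0.000129), and kept that call whichever replicate was left out. Slc17a6 rose by 0.91 (adjusted p = 0.025) and Gria2 by 0.90 (adjusted p = 0.028), but both calls were lost without lesion control replicate 2 or 3. Slc17a6 gave 0.59 without replicate 2, 0.67 without replicate 3 and 1.47 without replicate 1; Gria2 gave 0.35, 0.41 and 1.93 without the same replicates. The neuron marker list averaged -3.52 relative to normal cord on day 3, -1.73 on day 60 and -1.24 on day 90 in these gaps. Of its 12 markers tested 11 rose late, and their part in the result was not tested.

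NT-3 tube rats were compared with lesion control rats over the days both had. In the gap 3 of 7 genes fell, where 19.0% of all genes fell. Slc17a6 averaged 7.71 in the NT-3 gap and 8.68 in the lesion control gap (difference -0.97, SE 0.17, adjusted p = 2.37e-05). Gria3 averaged 5.74 in the NT-3 gap and 6.54 in the lesion control gap (difference -0.80, SE 0.12, adjusted p = 4.73e-06). Grik1 averaged 5.61 in the NT-3 gap and 6.23 in the lesion control gap (difference -0.62, SE 0.13, adjusted p = 0.000279), and on matched days its difference was -0.38 (adjusted p = 0.123). Gria2 differed by -0.06, with a 95% interval of -0.40 to 0.28, Gria4 by -0.07, Grin1 by -0.10 and Gria1 by -0.14, none of them called. Gap group means ran from 7.81 to 9.16 for Gria2, 7.24 to 8.06 for Gria4 and 6.94 to 7.50 for Grin1. In the reference RNA these genes lay at 7.98 to 8.13, 6.88 to 7.67 and 6.57 to 7.05. Gap arrays of Gria2 went down to 6.71, below its reference RNA range, so that range was not a floor for Gria2. For Gria4 and Grin1 a further fall near those levels may be understated. The missing calls do not show that these genes were unchanged. With all probe sets averaged, Gria3 differed by -0.47 (adjusted p = 3.75e-05) and Gria4 by -0.32 (adjusted p = 0.000124). On the matched days 10, 30 and 60 Slc17a6 differed by -0.67 (adjusted p = 0.0306) and Gria3 by -0.72 (adjusted p = 0.00201).

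Single days are given as values, with no test, and the share of all genes without overlap between the arms is not given here. RT1-CE10 was matched between the arms on days 10, 30 and 60 but not on days 3, 20 and 90. On the matched day 10 Slc17a6 had 8.17, 8.25 and 8.02 in the NT-3 gap, against 8.41, 7.76 and 8.23 in the lesion control gap. On day 30 it had 6.88, 6.88 and 7.01 in the NT-3 gap, against 8.11, 6.46 and 7.56 in the lesion control gap. The arms overlapped on both of these days, while on day 60 the NT-3 gap had 7.77, 8.49 and 6.95, all below the lesion control arrays. On day 3 Slc17a6 had 9.33, 9.51 and 9.02 in the NT-3 gap, against 9.80, 7.90 and 7.64 in the lesion control gap. On day 20 it had 7.24, 6.78 and 7.37 in the NT-3 gap, against 9.05, 9.74 and 9.36 in the lesion control gap. On day 90 it had 7.25, 6.48 and 7.31 in the NT-3 gap, against 9.80, 8.94 and 9.45 in the lesion control gap. The arms overlapped on day 3 and were apart by more than 1 log2 unit on days 20 and 90. Gria3 followed the same order on day 90, with 4.93, 4.73 and 5.49 in the NT-3 gap, against 7.02, 6.94 and 7.01 in the lesion control gap. Grik1 on day 20 had 5.66, 5.05 and 5.56 in the NT-3 gap, against 6.42, 7.23 and 6.92 in the lesion control gap. Gria2 on day 30 ran the other way, with 9.37, 8.91 and 8.47 in the NT-3 gap, against 8.27, 8.35 and 8.35 in the lesion control gap.

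The late gap was also compared alone, a choice made after the values were seen. On days 60 to 90, 4 of 7 genes fell in the NT-3 gap relative to the lesion control gap, where 15.0% of all genes fell. Slc17a6 averaged 7.38 in the NT-3 gap and 9.36 in the lesion control gap (difference -1.98, SE 0.29, adjusted p = 6.07e-06). Gria3 averaged 5.23 in the NT-3 gap and 6.71 in the lesion control gap (difference -1.48, adjusted p = 5.01e-06), and Grik1 5.69 in the NT-3 gap and 6.81 in the lesion control gap (difference -1.12, adjusted p = 0.000299). The Gria1 call (-0.31, adjusted p = 0.0499) was lost on several alternatives and its difference was 0.08 on the matched day 60. On that day Slc17a6 differed by -1.58 (adjusted p = 0.00645). Set against the same difference on day 3, the late one was lower for 3 of 7 genes, Slc17a6, Gria3 and Grik1, where 13.4% of all genes were lower.

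Markers of several cell types moved with these differences. All 8 sensory ganglion markers, all 9 skeletal muscle markers tested and 11 of 12 neuron markers tested fell in the NT-3 gap relative to the lesion control gap over the shared days. Of all genes tested, 19.0% fell in that comparison. Of the sensory ganglion markers, 3 were picked after their values were seen: Avil averaged 7.98 in the NT-3 gap and 10.65 in the lesion control gap on day 20, and was at 7.01 in normal cord. P2rx3 averaged 6.00 in the NT-3 gap and 8.85 in the lesion control gap on day 20, and Scn11a 5.61 in the NT-3 gap and 8.46 in the lesion control gap. As a list, the sensory ganglion markers in the lesion control gap stood at -1.03, 0.31, 2.05, 0.29, 1.70 and 1.83 relative to normal cord on days 3, 10, 20, 30, 60 and 90; days 20, 60 and 90 were also the days on which the group mean of Grik1 lay within the normal range. In the NT-3 gap the same list stood at 0.49, -0.02, -1.08, -0.54, 0.23 and -0.02. Group means of the skeletal muscle markers ran from 0.13 to 2.42 in the NT-3 gap and from 2.88 to 4.40 in the lesion control gap. Group means of the neuron markers ran from -4.10 to -2.40 in the NT-3 gap and from -3.52 to -1.24 in the lesion control gap. The part of these markers in the differences between the arms was not tested.

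**Figure D4:**
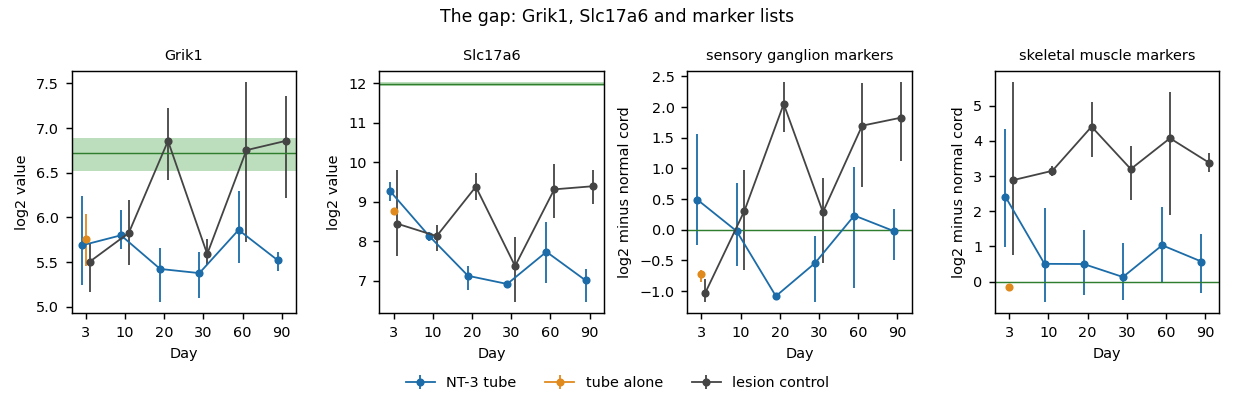
Grik1 and Slc17a6 (log2 value; green line and band, mean and range of normal cord) and the mean of the sensory ganglion and skeletal muscle markers (log2 difference from normal cord) in the gap by day, for the NT-3 tube, tube alone and lesion control arms; points are group means and bars run from the lowest to the highest array. In the lesion control gap the group means of Grik1, Slc17a6 and the sensory ganglion list were higher on days 20, 60 and 90 than on days 3, 10 and 30. Single arrays of Grik1 and Slc17a6 overlapped between these days, with Slc17a6 up to 9.80 on day 3 and Grik1 down to 5.72 on day 60. RT1-CE10 in the lesion control gap averaged 11.60 on day 30 and between 7.32 and 7.85 on the other days.

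In the rostral stump 1 of 8 genes fell in NT-3 tube rats relative to lesion control rats, where 1.27% of all genes fell: Grm5 averaged 5.84 in NT-3 tube rats and 6.13 in lesion control rats (difference -0.29, SE 0.07). Grm5 had passed the filter only through the lesion control side, so this is a description. The call was lost on matched days (-0.27), without NT-3 tube replicate 3 (-0.26) and without lesion control replicate 3 (-0.21). In the caudal stump limma called none of 8 genes, with 2 at an unadjusted p under 0.05 and 10.2% of all genes called. The caudal differences ran from -0.20 to -0.04.

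Tube alone rats were compared with lesion control rats in the same way. Rostrally, all 8 genes tested were lower with the tube alone, where 18.3% of all genes were lower, with differences between -0.39 and -0.21. Slc17a6 averaged 10.75 with the tube alone and 11.07 in lesion control rats (difference -0.32, SE 0.05, adjusted p = 2.13e-06). Gria3 averaged 8.72 with the tube alone and 9.06 in lesion control rats (difference -0.34, SE 0.05, adjusted p = 6.07e-06), and Grm5, as a description, 5.74 with the tube alone and 6.13 in lesion control rats (difference -0.39). On matched days the Gria2 (-0.17, adjusted p = 0.17) and Gria4 (-0.11, adjusted p = 0.217) calls were lost, and the Gria2 call also without tube alone replicate 2 (-0.21, adjusted p = 0.0705). In the caudal stump limma called none of 8 genes, with none at an unadjusted p under 0.05 and 8.65% of all genes called.

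The late rostral stump gave the following values. On day 60 Gria1 had 5.70, 5.75 and 5.79 with the tube alone, against 6.82, 6.76 and 6.66 in lesion control rats. Grm5 had 5.87, 5.63 and 5.56 with the tube alone, against 6.65, 6.71 and 6.89 in lesion control rats. Grik1 on day 90 had 5.86, 5.89 and 5.95 with the tube alone, against 6.65, 7.15 and 6.84 in lesion control rats. The groups did not overlap in any of these, but the share of all genes without overlap between these groups is not given here. The separation is therefore a description. RT1-CE10 was matched between these arms on day 90 and not on day 60. Over days 60 to 90, a span chosen after the values were seen, 7 of 8 genes were lower with the tube alone, where 14.7% of all genes were lower. Grm5, which entered the fit through these late lesion control groups, differed by -0.90 as a description, Gria2 by -0.83 (adjusted p = 6.34e-06), Grik1 by -0.77 (adjusted p = 2.92e-06) and Gria1 by -0.71 (adjusted p = 6.75e-07), the last being -0.41 on day 90 alone. On day 90 alone Grm5 differed by -0.74 and Grik1 by -0.98. Grin1 differed by -0.25 (adjusted p = 0.0531). Set against the same difference on days 1 to 3, the late one was lower for 3 of 8 genes, Gria1, Grm5 and Grik1, where 2.66% of all genes were lower. On days 60 and 90 the fibroblast markers in the rostral stump averaged 3.24 and 3.21 above normal cord with the tube alone and 2.03 and 1.69 in lesion control rats, and the neuron markers -1.14 and -0.91 with the tube alone and -0.73 and -0.51 in lesion control rats. All 12 neuron markers tested fell with the tube alone over all days, where 18.3% of all genes fell. The part of these markers in the result was not tested.

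**Figure D5:**
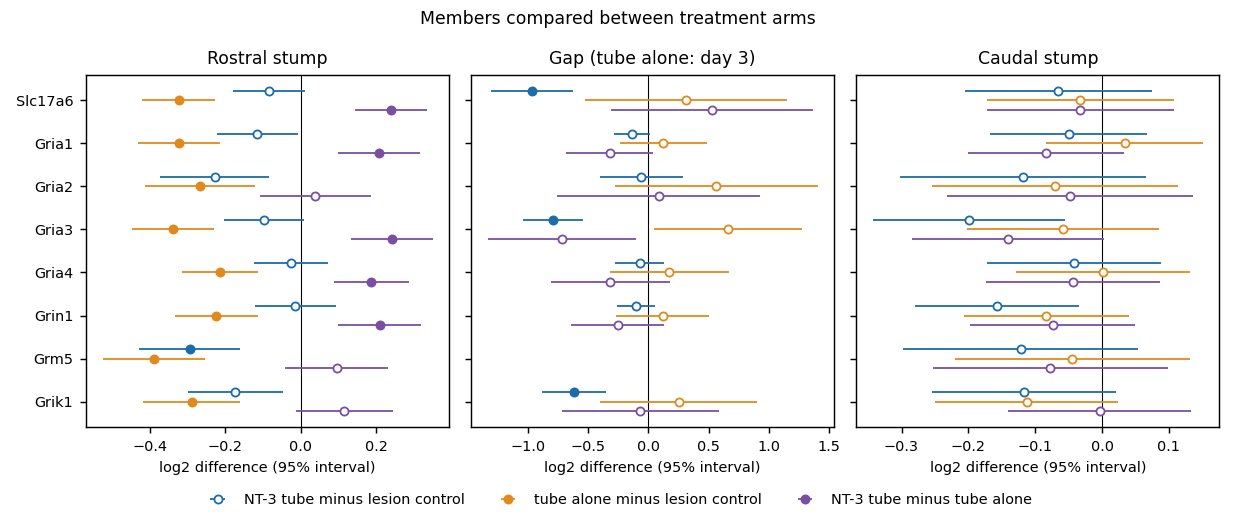
Log2 differences with 95% intervals between arms for the genes tested in the rostral stump, gap and caudal stump: NT-3 tube minus lesion control, tube alone minus lesion control, and NT-3 tube minus tube alone; filled points passed an adjusted p of 0.05 and open points did not. All 8 rostral tube alone differences were below 0 and called, no caudal difference was called, and Slc17a6, Gria3 and Grik1 were the called genes in the NT-3 gap.

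NT-3 tube and tube alone rats were compared directly. In the rostral stump 5 of 8 genes were higher with NT-3, where 15.6% of all genes were higher: Slc17a6 by 0.24 (SE 0.05, adjusted p = 0.000238), Gria3 by 0.24 (adjusted p = 0.000811), Gria1 by 0.21 (adjusted p = 0.00384), Grin1 by 0.21 (adjusted p = 0.00375) and Gria4 by 0.19 (adjusted p = 0.00445). On matched days none of these calls held, with Slc17a6 at 0.09 (adjusted p = 0.347), and the Gria4 call was also lost without tube alone replicate 2. Over the rostral arrays the neuron markers had a median of -0.68 with NT-3 and -0.93 with the tube alone relative to normal cord, the fibroblast markers 2.10 with NT-3 and 3.31 with the tube alone, and the skeletal muscle markers -0.25 with NT-3 and 0.83 with the tube alone, and their part was not tested. In the caudal stump limma called none of 8 genes, with none at an unadjusted p under 0.05 and 3.93% of all genes called.

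The day 3 gap was the only gap sampled in all 3 arms. Gria3 had 7.21, 6.84 and 6.69 with NT-3, 7.69, 7.44 and 7.77 with the tube alone and 8.08, 6.67 and 6.17 in lesion control rats. No gene was called for tube alone against lesion control (limma; 1 of 7 at an unadjusted p under 0.05; 7.10% of all genes called) or for NT-3 against tube alone (1 of 7; 23.5%). Without lesion control replicate 1, the array that stood apart, tube alone exceeded lesion control by 1.56 for Gria2 (adjusted p = 0.000507) and by 1.21 for Gria3 (adjusted p = 0.00357). Whether the NT-3 difference from lesion control was unlike in the rostral and caudal stumps was also tested, and limma called none of 8 genes, with none at an unadjusted p under 0.05 and 0.112% of all genes called.

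The other genes of glutamate signalling were read from lists, and the genes named below were among those with the largest called changes. Of all genes tested in the gap of lesion control rats, 34.8% fell on day 3, 36.2% on days 10 to 30 and 36.6% on days 60 to 90. Of 11 other receptor subunits tested, 9 fell and 1 rose in the day 3 gap of lesion control rats, and 9 fell on days 10 to 30 and on days 60 to 90, with list medians of -1.27, -1.31 and -1.13. Grm3, a receptor that lowers transmitter release and is found on glia as well as neurons, differed by -3.09, -3.49 and -2.91 in the gap. Of 7 auxiliary subunits, 6, 7 and 7 fell in the gap, among them Shisa9, an AMPA receptor partner, with differences of -2.80, -2.92 and -2.54. Of 16 scaffold and signalling genes, 13, 10 and 11 fell in the gap. Shank1, a postsynaptic scaffold, differed by -3.72, -4.06 and -3.58, and Camk2b, a synaptic kinase, by -2.76, -3.19 and -2.58. Camk2b was also lower in the NT-3 gap than in the lesion control gap (-0.82, SE 0.13, adjusted p = 3.92e-06).

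Patterns like those of single genes were sought by correlation of group means over the 43 stump and normal cord groups, given as a description, since the group means share days, arms and arrays across genes. Slc17a6 was most like Gpr158 (r = 0.973), Gria2 most like Kcnd2 (0.949), Gria3 most like Unc80 (0.960) and Grin1 most like Camk2b (0.970). The r was lower for Gria1 with Cpne4 (0.874), Grm5 with Grin3a (0.893) and Grik1 with Fgf13 (0.814). Among the genes themselves, Gria3 and Gria4 were at 0.89, while Slc17a6 and Grm5 were at 0.19.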

How the data were processed

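Gene expression was measured in 172 arrays, of which 167, called cord arrays, came from injured or normal rats. The deposited values were log2 intensities made by the authors with Affymetrix Expression Console and RMA, per the submitters' processing notes, with no version stated there. They ranged from 2.6 to 15.0 and were used as deposited. Of 31099 probe sets, 20832 carried 1 symbol in the platform annotation, 436 several and 9831 none, which left 14218 genes, each read from its brightest probe set.

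Each segment was fitted with normal cord in limma 3.58.1 (R 4.3.3), with 1 mean per group of arm, segment and day. The stumps were fitted together for the rostral to caudal comparison, and the rostral stump with the gap for theirs. Contrasts averaged days, eBayes was applied, and p-values were two-sided and adjusted over all genes tested by Benjamini-Hochberg, with a threshold of 0.05. A gene entered a fit if its highest group mean reached 6.55, the 40th percentile of cord values. Intervals are 95% intervals of the fitted difference.

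Members and lists were chosen with earlier results of these data known; of 152 list entries, 139 matched. Other genes named were, by rule, among the 4 called genes of a glutamate list with the largest change in a comparison, the 3 genes most like a member by r, or the 2 brightest markers of a cell type; exceptions are stated. The alternatives were no filter, a second quantile normalization, a trended robust prior, the mean of all probe sets, array weights, a replicate block, matched days and each replicate left out. Same-numbered rostral and caudal arrays had deviations with r between -0.48 and 0.51 (62 pairs, median 0.12, 32 pairs above 0.1). Same-numbered arrays of injured groups and normal cord, which cannot be pairs, had r between -0.55 and 0.59 (163 pairs, median 0.02). The numbers were not treated as pairing the samples, but these values do not exclude pairing. Comparisons between segments took arrays as independent, and their p-values rest on that. The code was tested on simulated data. Figures used matplotlib 3.10.9.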

Additional observations from a re-analysis of the deposited data

Results flagged for a closer look

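For 6 results the difference between arms itself differed between times, in contrasts chosen after the values were seen. In the rostral stump, tube alone minus lesion control was lower on days 60 to 90 than on days 1 to 3 for Gria1 by -0.56 (SE 0.14, limma adjusted p = 0.00872), for Grik1 by -0.67 (SE 0.17, adjusted p = 0.00737) and for Grm5 by -0.84 (SE 0.18). Grm5 entered the fit only through the late lesion control groups, so its value is a description. Of all genes tested, 2.66% were lower in this contrast. On matched days Gria1 was at -0.05 and Grm5 at -0.56, neither called, while Grik1 was at -0.87 (adjusted p = 0.0302). The Gria1 call was also lost without tube alone replicate 2 (adjusted p = 0.0563) and the Grik1 call without tube alone replicate 1 (adjusted p = 0.0767).

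In the gap, NT-3 tube minus lesion control was lower on days 60 to 90 than on day 3 for Slc17a6 by -2.82 (SE 0.50, adjusted p = 0.000145), for Gria3 by -1.42 (SE 0.37, adjusted p = 0.00485) and for Grik1 by -1.30 (SE 0.39, adjusted p = 0.0134). Of all genes tested, 13.4% were lower in this contrast. All 8 sensory ganglion markers and 10 of 12 neuron markers were lower in it too, and their part was not tested. The Gria3 call was lost without lesion control replicate 3 (-0.95, adjusted p = 0.107) and the Grik1 call without NT-3 tube replicate 2 (-1.10, adjusted p = 0.0768). Without lesion control replicate 1, the day 3 array that stood apart, Gria2 was called as well (-2.13, adjusted p = 1.65e-05).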

How the results depend on the processing

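Every count of lesion control genes below normal cord stayed within 1.5 times its reported value under all alternatives run. With the replicate block no count of calls moved by over 1.5 times: the pairs of gene and group that fell numbered 387 with the replicate block and 388 without it, and the block changed no call in the comparisons averaged over days. The calls between arms were less steady. For NT-3 tube minus lesion control, the 1 rostral call, that of Grm5, became 0 on the mean of all probe sets, where Grm5 was not tested, 3 with array weights and 0 on matched days, and ran from 0 to 3 with 1 replicate left out. The caudal 0 became 4 with array weights and ran from 0 to 1. For tube alone minus lesion control, the 0 in the day 3 gap became 1 with no filter and 2 with array weights and ran from 0 to 2, and the caudal 0 became 1 with array weights. For NT-3 tube minus tube alone, the 5 rostral calls became 0 on matched days, and the 0 in the day 3 gap and the 0 caudally each became 1 with array weights. The late minus early calls ran from 1 to 3 in the gap (3 reported) and from 2 to 3 caudally (4 reported) with 1 replicate left out. The 1 rostral minus caudal call became 3 with array weights and ran from 0 to 1. The 0 for the difference between stumps in the NT-3 effect became 1 on matched days, and the 3 for the late tube alone contrast became 1. Gria3 late minus early in the rostral stump was -0.10, not called, and 0.30 on the mean of all probe sets. For NT-3 tube minus lesion control in the gap on days 60 to 90, Gria1 was at -0.31, and at 0.077 on the matched day. Gria2 minus Gria3 in the gap was 0.76 and -0.24 on the mean of all probe sets. The causes were not tested, except that matched days and left-out replicates use fewer arrays. Array weights did not fully converge in several fits. Over all genes, array weights moved the calls for NT-3 tube minus lesion control in the rostral stump to 1597, against 351, and for tube alone minus lesion control in the day 3 gap to 3946, against 846, and matched days left 488 of 2669 for NT-3 tube minus tube alone in the rostral stump. Dim genes (Gria1, Grin2a, Grm5, Grik1) lay near the filter value, where a fold is understated.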

Other observations

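A list of genes that handle glutamate was read as well (Slc1a1, Slc1a2, Slc1a3, Glul and Slc7a11). All 5 tested fell in the gap of lesion control rats on day 3, 4 of 5 on days 10 to 30, and 3 fell and 1 rose on days 60 to 90. Of all genes tested there, 34.8%, 36.2% and 36.6% fell in the same spans. Slc1a2, the main astrocyte glutamate transporter, differed from normal cord by -1.94, -2.41 and -2.09 in the gap. Slc1a3, the other astrocyte transporter, differed by -1.11, -0.94 and -0.63 in the gap, and by 0.29 in the rostral stump on days 10 to 30 and on days 60 to 90. Slc7a11, the cystine and glutamate exchanger, was above normal cord in the rostral stump, by 1.02, 1.10 and 1.24.

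The 5 arrays of commercial reference RNA, a mix of rat cell lines, held no tissue from the injured or normal rats. Slc17a6 lay between 6.34 and 6.65 there, Gria3 between 6.18 and 6.29, Gria2 between 7.98 and 8.13 and Grik1 between 5.36 and 5.70.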
